A study of Homo sapiens with 22 samples.

Results

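SOX4, SP5 and TNFRSF19, 3 of the 37908 genes in the count table, are known targets of β-catenin. They were grouped apart from the feedback regulators of WNT signalling. They were selected on the GSK3i response measured in these libraries and on how siRNA against β-catenin altered it. Their GSK3i responses without and with that siRNA and the effect of the siRNA under GSK3i are therefore given as a description, with no test. So are the differences of these between siRNAs and between BRCA2 backgrounds. Tests are given for BRCA2 depletion, for the siRNA without GSK3i, and for the difference of the latter between BRCA2 backgrounds. The effect of the siRNA without GSK3i can be built from the responses that chose the genes. Its p-values are thus not independent of the choice.

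RNA-seq was run on H1299, a cell line from a human non-small cell lung carcinoma, in a version whose BRCA2 shRNA is switched on by doxycycline (DOX). BRCA2-proficient cells were grown without DOX and BRCA2-deficient cells with 2 µg/mL DOX for 3 days. In each background the cells received control siRNA or siβ-catenin, an siRNA against the β-catenin gene CTNNB1, and either no inhibitor or 250 nM of the GSK3 inhibitor LY2090314 (GSK3i) for 24 h, and cells with control siRNA and no inhibitor are called untreated. The 22 libraries fell into 8 groups of 3, apart from the BRCA2-proficient untreated and siβ-catenin groups, which held 2 libraries each, numbered 2 and 3. Every group shared the line and the shRNA construct, and no culture had DOX without the shRNA, so that DOX and BRCA2 depletion cannot be told apart.

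β-catenin is a coactivator that is continually destroyed in resting cells. GSK3, within a complex built on APC and AXIN proteins, phosphorylates it and so marks it for ubiquitylation, and when WNT signals or an inhibitor block GSK3, β-catenin accumulates, enters the nucleus and works with TCF/LEF factors at their target genes. SOX4 encodes a transcription factor of the SRY-box family that acts in progenitor cells and is abundant in many carcinomas. SP5 encodes a zinc-finger factor of the SP family that binds GC-rich DNA and acts mostly as a repressor downstream of WNT. TNFRSF19, also called TROY, encodes an orphan member of the TNF receptor superfamily that lacks a death domain and marks WNT-responsive stem cells of the gut.

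On GRCh37 the annotation placed SOX4 (ENSG00000124766) on the + strand of chromosome 6, from 21593982 to 21598850, as a protein-coding gene with 1 transcript. It placed SP5 (ENSG00000204335) on the + strand of chromosome 2, from 171571847 to 171574588. TNFRSF19 (ENSG00000127863) lay on the + strand of chromosome 13, from 24144509 to 24250243. SOX4 and SP5 each overlapped 1 long noncoding RNA gene on the opposite strand (ENSG00000283480 and ERICH2-DT), and because the strand setting of the counting is not stated, reads from these genes may be shared and their counts are uncertain to that extent. TNFRSF19 overlapped no other gene.

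The promoters are shown because β-catenin reaches DNA through TCF/LEF factors, whose binding sites centre on a short core. The 250 bases before each RefSeq start (GRCh38.p14) had 1 exact match in GRCh37, whose coordinates are given; TNFRSF19 has more than 1 start and both of its windows follow. Capitals mark matches, on either strand, to any of 4 words searched, which are CTTTGAA (the first), CTTTGAT (the second), CTTTGTA (the third) and CTTTGTT (the last).
SOX4 (chr6:21593732-21593981, + strand): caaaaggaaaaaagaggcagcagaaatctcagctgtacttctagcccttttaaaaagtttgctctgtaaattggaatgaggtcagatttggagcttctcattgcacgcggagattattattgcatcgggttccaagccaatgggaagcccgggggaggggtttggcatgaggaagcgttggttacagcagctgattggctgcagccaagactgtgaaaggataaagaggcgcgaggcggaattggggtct
SP5 (chr2:171571597-171571846, + strand): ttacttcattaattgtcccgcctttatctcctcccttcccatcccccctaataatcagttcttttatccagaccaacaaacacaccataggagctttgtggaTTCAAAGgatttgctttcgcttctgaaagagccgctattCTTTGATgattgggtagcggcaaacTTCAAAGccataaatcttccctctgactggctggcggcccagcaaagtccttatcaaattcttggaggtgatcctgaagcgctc
TNFRSF19, upstream start (chr13:24144301-24144550, + strand): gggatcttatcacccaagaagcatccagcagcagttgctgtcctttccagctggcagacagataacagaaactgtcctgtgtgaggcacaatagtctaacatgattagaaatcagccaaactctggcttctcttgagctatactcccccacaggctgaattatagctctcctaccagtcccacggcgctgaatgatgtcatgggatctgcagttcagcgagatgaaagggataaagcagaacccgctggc
TNFRSF19, downstream start (chr13:24153249-24153498, + strand): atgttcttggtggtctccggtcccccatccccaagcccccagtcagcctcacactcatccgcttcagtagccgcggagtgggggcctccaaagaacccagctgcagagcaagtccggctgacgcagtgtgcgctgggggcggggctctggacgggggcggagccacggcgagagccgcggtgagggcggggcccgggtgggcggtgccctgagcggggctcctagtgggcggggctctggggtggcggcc

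The SP5 window held 3 of these words, at 148, 109 and 84 bases before the start. SOX4 and both windows of TNFRSF19 held none. Of 35116 promoter windows of the same length, 12% held at least 1 word and 0.122% held at least 3. A match is a string of letters and not a measured site, and its absence says only that these letters are not in the window.

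Before the comparisons, the labels were checked. CTNNB1 lay between 976.8 and 2217 normalised counts (counts divided by the size factor of the library) in the 11 libraries with siβ-catenin and between 5206 and 8669 in the others. BRCA2 lay between 71.4 and 225.3 in the 12 BRCA2-deficient libraries and between 513.6 and 1111 in the 10 BRCA2-proficient ones. The line markers VIM, KRT8, KRT18 and CDH2 were abundant, with at least 1923 normalised counts everywhere. Of 10 markers of other cell types 7 had a row, and 6 of those stayed at or below 13.56, with PTPRC, SFTPC and CDH5 at or near 0. The lung-lineage factor NKX2-1 held 19.84 to 108.3.

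Not all libraries matched their GSK3i label. A GSK3i score was set after the values were seen, as the mean log2 level of 1359 genes higher minus that of 1685 genes lower with GSK3i and control siRNA in both backgrounds, leaving out SOX4, SP5 and TNFRSF19. It lay between 2.96 and 3.38 in the 6 libraries with GSK3i alone, and between 0.84 and 1.16 in the 5 untreated ones. These libraries chose its genes, so that gap was set in advance. In BRCA2-deficient cells with siβ-catenin it lay between 0.7 and 1.14 without GSK3i and between 2.3 and 2.53 with it. Replicates 1 and 3 of BRCA2-proficient GSK3i + siβ-catenin had 2.79 and 2.87. The library labelled BRCA2-proficient siβ-catenin replicate 2 had a score of 2.8 although its label gives no GSK3i. The library labelled BRCA2-proficient GSK3i + siβ-catenin replicate 2 had a score of 1.18 although its label gives GSK3i. PDCD4, a gene lower with GSK3i that was also chosen after its values were seen, had 290.9 and 1998 normalised counts in these 2 libraries. It had 1551 to 1920 counts in untreated cells and 107.7 to 163.5 with GSK3i alone. Replicate 3 of BRCA2-proficient siβ-catenin was intermediate, with a score of 1.83 and 1056 counts of PDCD4. All libraries were kept in the groups their labels give, and values without the 2 libraries stand beside those of the comparisons that hold them.

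**Figure D1:**
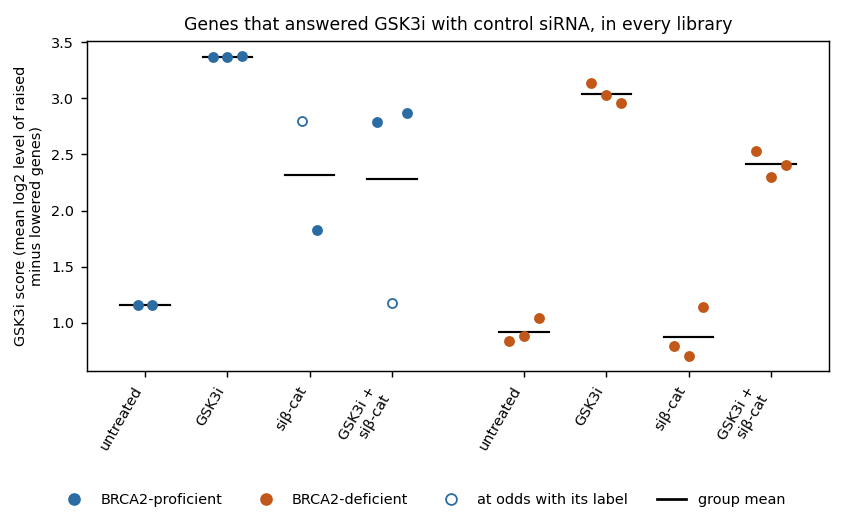
GSK3i score (log2 scale, vertical axis) of each library by group, with BRCA2-proficient libraries in blue, BRCA2-deficient ones in orange and black bars at group means. The open points, at 2.8 and 1.18, are the 2 libraries at odds with their GSK3i label.

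SOX4 was the most abundant of the 3 genes and was higher with GSK3i in both backgrounds. Each library is a whole culture, so more cells with the transcript and more transcript per cell cannot be told apart. Its levels were 982.2 and 1103 normalised counts in untreated BRCA2-proficient cells and 3536, 3527 and 2693 with GSK3i. In BRCA2-deficient cells they were 996.1, 1066 and 1167 untreated and 2717, 3450 and 2695 with GSK3i. Every GSK3i library was above every untreated library by more than the spread within either group. With siβ-catenin the libraries with GSK3i overlapped those without it in BRCA2-proficient cells and lay below them in BRCA2-deficient cells. BRCA2-proficient cells had 902.5 and 971.4 counts of SOX4 with siβ-catenin and 876.2, 920 and 936.5 with siβ-catenin and GSK3i. BRCA2-deficient cells had 951.3, 868.8 and 935.2 with siβ-catenin and 844.3, 709.4 and 720.8 with both. All 11 libraries with siβ-catenin lay below all 5 untreated libraries, and the BRCA2-deficient group with both treatments lay below every other group.

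SP5 was less abundant. Its levels were 110.3 and 122.8 in untreated BRCA2-proficient cells and 188.7, 151.3 and 169.1 with GSK3i. In BRCA2-deficient cells they were 144, 137.6 and 100.3 untreated and 214.2, 224.6 and 234.2 with GSK3i. In neither background did the GSK3i and untreated libraries overlap. With siβ-catenin, BRCA2-proficient cells had 45.18 and 73.95 without GSK3i and 68.48, 127 and 84.64 with it, where the groups overlapped. The values 45.18 and 127 are those of the 2 libraries at odds with their GSK3i label. Without both, the log2 fold change of SP5 with GSK3i under siβ-catenin there was 0.05. BRCA2-deficient cells had 212.6, 152.5 and 174.2 with siβ-catenin and 92.03, 59.45 and 67.03 with both, and every library with GSK3i lay below every one without it.

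TNFRSF19 had few reads, from 15 to 80 raw counts per library, so that its values carry a larger counting error than those of the other two. Its levels were 32.51 and 37.12 normalised counts in untreated BRCA2-proficient cells and 51.25, 33 and 51.87 with GSK3i, and these overlapped. In BRCA2-deficient cells they were 23.8, 16.25 and 27.63 untreated and 48.11, 70.74 and 70.63 with GSK3i, with no overlap. With siβ-catenin, BRCA2-proficient cells had 34.16 and 43.97 without GSK3i and 42.3, 26.95 and 45.51 with it. BRCA2-deficient cells had 18.49, 15.17 and 22.75 without GSK3i and 28.01, 22.17 and 25.61 with it. In both backgrounds the siβ-catenin groups with and without GSK3i overlapped.

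**Figure D2:**
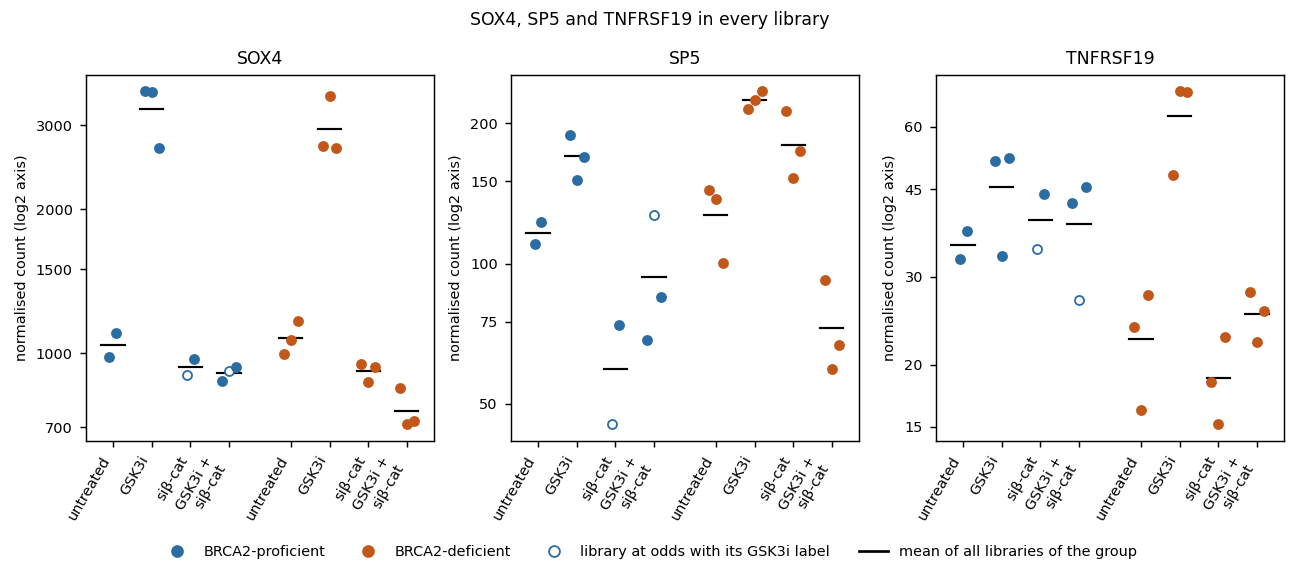
Normalised counts (log2 axis) of SOX4, SP5 and TNFRSF19 in each library of the 8 groups, with BRCA2-proficient libraries in blue, BRCA2-deficient ones in orange, open points for the 2 libraries at odds with their GSK3i label, and black bars at group means. SOX4 is highest in the groups with GSK3i and control siRNA, at 2693 to 3536, while SP5 is also high in BRCA2-deficient cells with siβ-catenin, at 152.5 to 212.6.

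Levels per length compare the genes with each other. In untreated BRCA2-proficient cells (n = 2) the normalised counts per kilobase of annotated exons were 214.1 ± 17.5 (SD) for SOX4, 56.2 ± 4.26 for SP5 and 6.809 ± 0.638 for TNFRSF19. The gene with the highest level was SOX4 in all 8 groups and the one with the lowest was TNFRSF19. For SOX4 the order of groups by mean normalised count was GSK3i alone in BRCA2-proficient (3252 ± 484) and BRCA2-deficient cells (2954 ± 430), untreated BRCA2-deficient (1076 ± 85.7) and BRCA2-proficient cells (1043 ± 85.5), and then the siβ-catenin groups, from 936.9 ± 48.7 down to 758.1 ± 74.8. The overlap of neighbours ended between GSK3i alone and untreated, between untreated and siβ-catenin, and before the last group. For SP5, GSK3i in BRCA2-deficient cells came first (224.3 ± 10) and overlapped no other group, followed by siβ-catenin in BRCA2-deficient cells (179.8 ± 30.4), GSK3i in BRCA2-proficient cells (169.7 ± 18.7) and the untreated groups (127.3 ± 23.6 and 116.5 ± 8.83), which overlapped each other but not the group before them. The remaining siβ-catenin groups had means of 93.38 ± 30.2, 72.84 ± 17 and 59.57 ± 20.3 and overlapped each other. For TNFRSF19, GSK3i in BRCA2-deficient cells was highest (63.16 ± 13) and overlapped the next group, GSK3i in BRCA2-proficient cells (45.37 ± 10.7). The other BRCA2-proficient groups had means from 34.81 ± 3.26 to 39.07 ± 6.94 and overlapped each other. The lowest was siβ-catenin in BRCA2-deficient cells (18.8 ± 3.8), which overlapped the untreated BRCA2-deficient group (22.56 ± 5.79).

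The GSK3i response with control siRNA gives the change that follows GSK3 inhibition while β-catenin can accumulate. Folds are log2 fold changes ± SE from DESeq2, and a gene counts as called with an adjusted p below 0.05 together with a change larger than 0.5 in size. In BRCA2-proficient cells SOX4 was higher by 1.63 ± 0.16, and the values were 0.52 ± 0.24 for SP5 and 0.36 ± 0.42 for TNFRSF19. Of the 3 genes, 1, SOX4, was called higher, where 11.8% of all genes tested were. In BRCA2-deficient cells SOX4 was higher by 1.45 ± 0.17, SP5 by 0.82 ± 0.22 and TNFRSF19 by 1.49 ± 0.38. All 3 were called higher, where 11.6% of all genes were. These values took part in the choice of the genes, and nothing is read from the counts.

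siβ-catenin was then compared with control siRNA under GSK3i. In BRCA2-proficient cells SOX4 was lower, with a change of -1.81 ± 0.16, and the values were -0.83 ± 0.28 for SP5 and -0.22 ± 0.39 for TNFRSF19. SOX4 was called lower, where 1.92% of all genes were. Without the library labelled GSK3i + siβ-catenin replicate 2 the values were -1.82, -1.13 and -0.03, and SP5 was also called. With all libraries kept SP5 was called too under TMM size factors (-0.84), without the filter on low counts (-0.85) and in 1 model over all 8 groups (-0.86). In BRCA2-deficient cells the changes were -1.97 ± 0.17 for SOX4, -1.63 ± 0.23 for SP5 and -1.33 ± 0.35 for TNFRSF19. All 3 were called lower, where 2.57% of all genes were. The call of TNFRSF19 was lost without replicate 2 or 3 of either group, with changes between -1.35 and -1.24, and it was not made by edgeR (-1.31). These values, too, are a description.

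The GSK3i response that was left under siβ-catenin is the other side of the comparison that chose the genes and is likewise a description. In BRCA2-proficient cells none of the 3 genes was called by DESeq2, where 0.0529% of all genes were. The log2 fold change was -0.03 ± 0.17 for SOX4, 0.66 ± 0.43 for SP5 and -0.02 ± 0.48 for TNFRSF19. The 95% interval ran from -0.37 to 0.31 for SOX4, and the wide intervals of SP5 (-0.19 to 1.51) and TNFRSF19 (-0.96 to 0.92) do not show that GSK3i had no effect. Without both libraries at odds with their label, which left 1 library with siβ-catenin alone, the values were -0.1 for SOX4, 0.05 for SP5 and 0 for TNFRSF19, and 1101 genes were called instead of 9.

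In BRCA2-deficient cells, where no library was at odds with its label, SP5 was lower with GSK3i under siβ-catenin, with a log2 fold change of -1.3 ± 0.25. It was the 1 gene of the 3 that was called, where 20.1% of all genes were, and nothing is read from that count. All 3 libraries with GSK3i lay below all 3 without it, and leaving out 1 library gave changes between -1.51 and -1.16. These values took part in the choice of the genes and are a description. The value was -0.27 ± 0.15 for SOX4 (95% interval -0.57 to 0.03) and 0.43 ± 0.43 for TNFRSF19 (interval -0.41 to 1.27). In the same comparison NKX2-1 fell by 1.36 (SE 0.32, adjusted p = 0.000262), from 61.51 to 108.3 normalised counts with siβ-catenin to 30.01 to 37.66 with both treatments. The other 6 markers of other cell types summed to 13.45 to 23.59 and to 14 to 30.13. The part of NKX2-1 in the result for SP5 was not tested.

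The difference between the responses without and with siβ-catenin is the interaction of GSK3i with siβ-catenin. In BRCA2-deficient cells it was -1.74 ± 0.2 for SOX4, -2.13 ± 0.31 for SP5 and -1.07 ± 0.48 for TNFRSF19. In BRCA2-proficient cells it was -1.66 ± 0.23 for SOX4, 0.13 ± 0.46 for SP5 and -0.39 ± 0.58 for TNFRSF19. Without both libraries at odds with their label these became -1.73, -0.47 and -0.37. For SOX4 the interaction was close in size to its GSK3i response with control siRNA in both backgrounds. For SP5 in BRCA2-deficient cells it exceeded that response, because the response with siβ-catenin had the opposite sign.

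**Figure D3:**
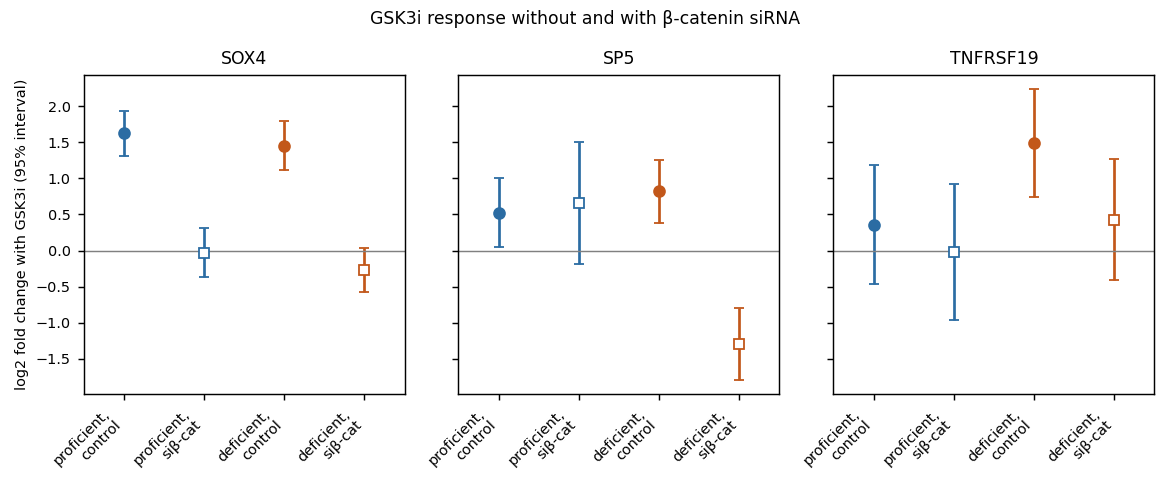
log2 fold change with GSK3i (vertical axis, with 95% intervals) of SOX4, SP5 and TNFRSF19, with control siRNA (filled circles) and with siβ-catenin (open squares), in BRCA2-proficient (blue) and BRCA2-deficient cells (orange). SOX4 goes from 1.63 and 1.45 with control siRNA to -0.03 and -0.27 with siβ-catenin, and SP5 in BRCA2-deficient cells goes from 0.82 to -1.3.

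The response to siβ-catenin without GSK3i asks how far the basal level of each gene depends on β-catenin. For the 3 genes its p-values are not independent of their choice, in which both groups compared took part. In BRCA2-proficient cells 0 of the 3 genes were called by DESeq2, where 2.97% of all genes were, and 1 had an unadjusted p below 0.05. The log2 fold change was -0.16 ± 0.2 for SOX4 (adjusted p = 0.75), -0.97 ± 0.41 for SP5 (0.188) and 0.16 ± 0.55 for TNFRSF19 (0.928). Without the library labelled siβ-catenin replicate 2 these were -0.11, -0.66 and 0.33. In BRCA2-deficient cells 0 of the 3 were called, where 2.03% of all genes were (351 genes, or 527 with the replicate block), and 1 had an unadjusted p below 0.05. The log2 fold change was -0.23 ± 0.15 for SOX4 (adjusted p = 0.557), 0.51 ± 0.23 for SP5 (0.284) and -0.26 ± 0.45 for TNFRSF19 (0.886). The SOX4 libraries did not overlap in either background, but the difference did not pass the test. For CTNNB1 itself the change was -2 ± 0.16 without DOX (adjusted p = 3.59e-30) and -2.12 ± 0.23 with DOX (adjusted p = 7.68e-16).

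BRCA2 depletion was examined at each of the 4 treatments. In untreated cells the changes were 0.02 ± 0.18 for SOX4 (adjusted p = 0.966), 0.1 ± 0.28 for SP5 (0.89) and -0.65 ± 0.49 for TNFRSF19 (0.484), with 0 of 3 called and 0 under an unadjusted p of 0.05, where 6.91% of all genes were called. Under GSK3i they were -0.14 ± 0.18 (adjusted p = 0.758), 0.4 ± 0.19 (0.195) and 0.48 ± 0.34 (0.469), with 0 of 3 called and 1, SP5, under an unadjusted p of 0.05, where 6.81% of all genes were called. With GSK3i and siβ-catenin they were -0.27 ± 0.17 (adjusted p = 0.365), -0.37 ± 0.34 (0.605) and -0.6 ± 0.43 (0.459), with 0 of 3 called and 0 under an unadjusted p of 0.05, where 7.74% were called. Without the library labelled BRCA2-proficient GSK3i + siβ-catenin replicate 2 the last values were -0.27, -0.09 and -0.81. For SOX4 the 95% interval in untreated cells ran from -0.32 to 0.37, so a change with BRCA2 depletion as large as its GSK3i response lay outside it.

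With siβ-catenin and no GSK3i, SP5 rose with BRCA2 depletion, by 1.57 ± 0.31 (adjusted p = 9.17e-06). It was the 1 gene of the 3 that was called, where 27.4% of all genes were. All 3 BRCA2-deficient libraries (152.5 to 212.6) lay above both BRCA2-proficient ones (45.18 and 73.95). The library labelled BRCA2-proficient siβ-catenin replicate 2 was the lowest. Without it the value of SP5 was 1.25, given with no test because the 1 BRCA2-proficient library left, that of the intermediate GSK3i score, shows no spread of its own. The value was -0.05 ± 0.16 for SOX4 (adjusted p = 0.845) and -1.08 ± 0.48 for TNFRSF19 (adjusted p = 0.0689), and without that library -0.11 and -1.25. For TNFRSF19 the 2 groups did not overlap, and edgeR called the change (-1.06, adjusted p = 0.043). NKX2-1 was higher in the same comparison by 1.21 ± 0.46 (adjusted p = 0.0323), with 19.84 and 55.96 normalised counts without DOX and 61.51 to 108.3 with it, but by 0.65 without the library at odds with its label. The other 6 markers of other cell types summed to 15.99 and 16.53 without DOX and to 13.45 to 23.59 with it. The GSK3i score was 1.83 and 2.8 in the former and 0.7 to 1.14 in the latter. The part of NKX2-1 and of the GSK3i score in the result was not tested.

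**Figure D4:**
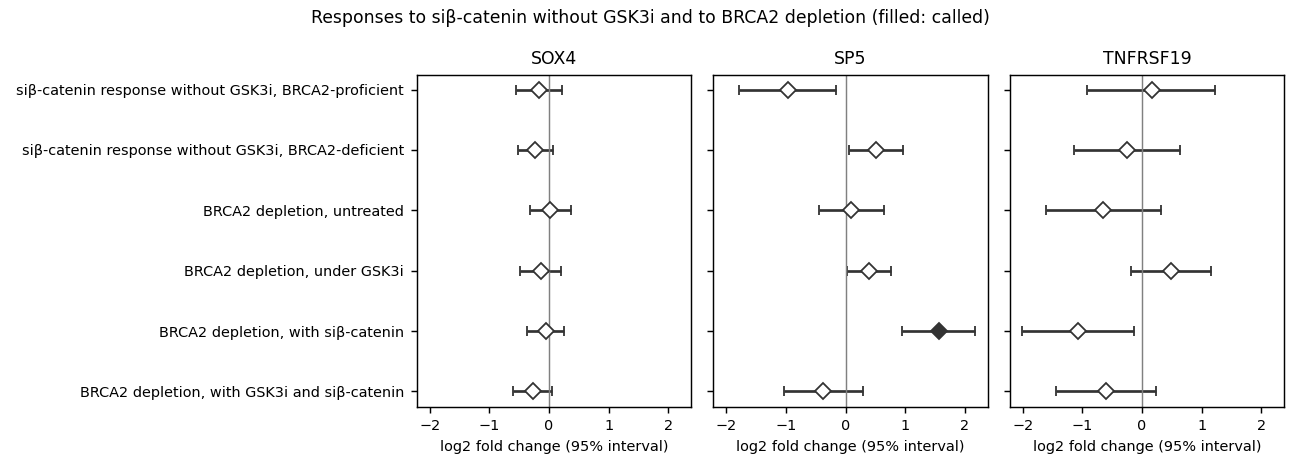
log2 fold changes (horizontal axis, with 95% intervals) of SOX4, SP5 and TNFRSF19 with siβ-catenin in the absence of GSK3i and with BRCA2 depletion at each treatment, with filled symbols for called changes. The 1 called change is that of SP5 with BRCA2 depletion under siβ-catenin, at 1.57, and every interval of SOX4 holds 0.

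Differences of the responses between BRCA2 backgrounds were fitted as interaction terms. Those of the responses that chose the genes are a description. For the GSK3i response with control siRNA, the difference (BRCA2-deficient minus BRCA2-proficient) was -0.19 ± 0.24 for SOX4, 0.28 ± 0.28 for SP5 and 1.11 ± 0.5 for TNFRSF19. DESeq2 called none of the 3, while 0.0345% of all genes were called. TNFRSF19 was called with GSK3i in BRCA2-deficient cells and not in BRCA2-proficient cells. Whether its response differed between them is not decided by these calls, because the values took part in the choice of the genes. Few genes of any kind were called for this difference. For TNFRSF19 the interval of the difference ran from 0.13 to 2.09, which is likewise a description. For the siβ-catenin response under GSK3i, the differences were -0.14 ± 0.22 for SOX4, -0.78 ± 0.35 for SP5 and -1.09 ± 0.46 for TNFRSF19. Again none was called, while 0.0057% of all genes were. Without the library labelled BRCA2-proficient GSK3i + siβ-catenin replicate 2 these differences were -0.13, -0.49 and -1.29.

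For the GSK3i response with siβ-catenin, also a description, the difference was -1.95 ± 0.45 for SP5, -0.23 ± 0.2 for SOX4 and 0.46 ± 0.56 for TNFRSF19. SP5 was the 1 gene of the 3 called, where 0.439% of all genes were. Without both libraries at odds with their label the values were -1.36, -0.18 and 0.42, and SP5 was not called. The response to siβ-catenin without GSK3i was not itself used in the choice and was tested. It can be built from the responses that were used, so its p-values are not independent of the choice. For SP5 it differed between backgrounds by 1.47 ± 0.4 (adjusted p = 0.0176), and SP5 was the 1 gene of the 3 called, where 2.5% of all genes were. There the term was -0.07 ± 0.22 for SOX4 (adjusted p = 0.917) and -0.42 ± 0.61 for TNFRSF19, with no adjusted p because DESeq2 set it aside for its low mean. Both differences of SP5 share the siβ-catenin groups, so they are not separate pieces of evidence. Both lost the call without the library labelled BRCA2-proficient siβ-catenin replicate 2, at -1.64 and 1.16. Those fits left 1 library in that group, so the loss is not read as a test result. With edgeR both also lost the call (-1.97, and 1.47 with an adjusted p of 0.14).

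Other WNT targets were set beside the 3 genes. Of 29 listed, 19 could be tested with GSK3i and control siRNA in each background, and 7 rose and 4 fell in BRCA2-proficient cells, where 11.8% of all genes rose and 14.2% fell, with a list median of 0.25 against 0 over all genes. In BRCA2-deficient cells 7 rose and 3 fell, where 11.6% of all genes rose and 13.8% fell, with a median of 0.41 against 0.02. The largest changes there were those of AXIN2, LEF1, MMP7 and TCF7. The destruction complex scaffold AXIN2 rose by 4.61 ± 0.22 (adjusted p = 2.15e-93). The TCF/LEF factors LEF1 and TCF7 rose by 3.05 ± 0.22 (adjusted p = 8.85e-39) and 2.24 ± 0.17 (adjusted p = 2.13e-35). The matrix protease MMP7 rose by 3.02 ± 1.03 (adjusted p = 0.0147), but had few reads. Its means were 1.404 normalised counts untreated and 11.78 with GSK3i. With siβ-catenin under GSK3i, 1 rose and 7 fell of 18 tested in BRCA2-proficient cells, where 3.18% of all genes rose and 1.92% fell. Leaving out the library labelled GSK3i + siβ-catenin replicate 2, 0 rose and 7 fell. In BRCA2-deficient cells 2 rose and 7 fell of 20, where 2.95% of all genes rose and 2.57% fell, and AXIN2 fell by 3.1 (SE 0.26, adjusted p = 4.33e-28).

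Some listed targets also changed with GSK3i under siβ-catenin. In BRCA2-deficient cells 4 of 19 rose and 4 fell, where 8.56% of all genes rose and 11.5% fell, with a median of -0.16 against 0.01. AXIN2 rose by 0.98 ± 0.27 (adjusted p = 0.00258). The lipase and WNT inhibitor NOTUM fell by 1.22 (SE 0.48, adjusted p = 0.0434), the secreted inhibitor DKK1 by 1 (SE 0.24, adjusted p = 0.000349) and the repressor ID2 by 0.87 (SE 0.2, adjusted p = 0.000186). SP5, at -1.3, thus lay below all 19 genes of the list, though within the SE of NOTUM, while AXIN2 had the opposite sign. The place of SP5 is a description, because this response took part in its choice. In BRCA2-proficient cells 0 of 19 were called by DESeq2 and 0 had an unadjusted p below 0.05, where 0.0529% of all genes were called. This comparison holds both libraries at odds with their label. Without them 1 of the 19, TCF7 at 0.97, met the criteria, where 3.47% of all genes met them upward and 3% downward. The 1 library then left with siβ-catenin alone is assumed to vary like the others. With siβ-catenin and no GSK3i, 0 of 20 and 0 of 19 listed targets were called in the 2 backgrounds, where 2.97% and 2.03% of all genes were, and 3 and 4 had an unadjusted p below 0.05. When BRCA2-proficient siβ-catenin replicate 2 was left out, under the same assumption, 1 of the 20, DKK1 at 1.3, met the criteria.

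**Figure D5:**
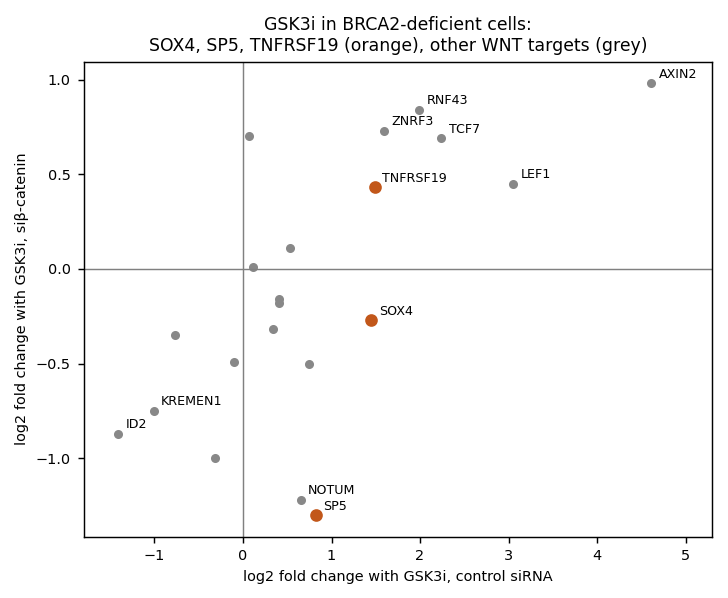
log2 fold change with GSK3i in BRCA2-deficient cells, with control siRNA (horizontal axis) against siβ-catenin (vertical axis), for SOX4, SP5 and TNFRSF19 (orange) and the 18 other WNT targets tested in both (grey, labelled where beyond 1 on either axis). SP5 is the lowest point, at -1.3, and AXIN2 the highest, at 0.98.

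The factors that bring β-catenin to DNA were tested in the same way. Of 11 TCF/LEF factors and coactivators, 3 rose and 3 fell with GSK3i in BRCA2-proficient cells (median -0.27 against 0), and 4 rose and 0 fell in BRCA2-deficient cells (median -0.02 against 0.02), with LEF1 and TCF7 foremost in both. Over all genes 11.8% rose and 14.2% fell in the former and 11.6% and 13.8% in the latter. Under siβ-catenin 2 of the 11, TCF7 (0.69 ± 0.21, adjusted p = 0.00674) and the coactivator PYGO1 (0.88 ± 0.22, adjusted p = 0.000737), rose with GSK3i in BRCA2-deficient cells, where 8.56% of all genes rose.

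Relatives of the 3 genes were examined next. Of 18 other SOX genes 8 could be tested with GSK3i and control siRNA, and 1, the stem-cell factor SOX2, rose in each background, where 11.8% and 11.6% of all genes did. It rose by 0.6 ± 0.24 (adjusted p = 0.0386) in BRCA2-proficient cells and by 0.99 ± 0.2 (adjusted p = 1.8e-05) with BRCA2 depleted. SOX12, of the same subgroup as SOX4, had values of -0.19 ± 0.13 (adjusted p = 0.268) and -0.16 ± 0.19 (0.598). SOX9, itself abundant here at 2168 to 4452 normalised counts, fell with siβ-catenin under GSK3i, by 0.51 (SE 0.14, adjusted p = 0.0117) in the first background and by 0.68 (SE 0.14, adjusted p = 0.00017) in the second, where 1.92% and 2.57% of all genes fell. SOX9 fell by 0.58 in the first background without the library labelled BRCA2-proficient GSK3i + siβ-catenin replicate 2.

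Of 8 other SP genes, 0 of 6 and 0 of 5 tested were called with GSK3i and control siRNA by DESeq2, and 0 and 0 had an unadjusted p below 0.05. Over all genes 11.8% rose and 14.2% fell in BRCA2-proficient cells, and 11.6% and 13.8% in BRCA2-deficient cells. SP6, an epithelial factor with 0 to 43.15 normalised counts, fell with GSK3i under siβ-catenin in BRCA2-deficient cells by 2.08 (SE 0.47, adjusted p = 0.000165), and rose with BRCA2 depletion under siβ-catenin by 2.78 ± 0.64 (adjusted p = 0.000152). The latter value was 3.17 without the library labelled BRCA2-proficient siβ-catenin replicate 2. These are the directions of SP5 in the same comparisons, which share the BRCA2-deficient siβ-catenin libraries. SP6 was higher in that group in both, so the 2 changes are not separate pieces of evidence. It had too few reads to be tested for BRCA2 depletion with GSK3i and siβ-catenin. Of 6 SP genes tested in each, 0 rose and 1 fell in the former, where 8.56% of all genes rose and 11.5% fell. In the latter 1 rose and 1 fell, where 13.6% of all genes rose and 13.8% fell.

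Of 28 other TNF receptor superfamily genes 17 were tested with GSK3i and control siRNA. In BRCA2-proficient cells 3 rose and 4 fell, and in BRCA2-deficient cells 5 rose and 5 fell, with medians of -0.03 and -0.42 against 0 and 0.02 over all genes. Over all genes 11.8% rose and 14.2% fell in the former and 11.6% and 13.8% in the latter. The lymphotoxin β receptor LTBR fell by 3.75 (SE 0.95, adjusted p = 0.000512) and 3.03 (SE 0.81, adjusted p = 0.00135). LTBR had few reads, so that the size of its fall is uncertain. Its means were 25.31 normalised counts untreated and 1.895 with GSK3i in BRCA2-proficient cells, and 18.09 and 2.157 in BRCA2-deficient cells. The TNF receptor TNFRSF1B fell by 2.28 (SE 0.53, adjusted p = 0.000116) and 1.74 (SE 0.24, adjusted p = 2.08e-11). TNFRSF8, which encodes CD30, rose by 2.27 ± 0.35 (adjusted p = 2.57e-09) and 2.44 ± 0.28 (adjusted p = 8.14e-16). With siβ-catenin under GSK3i 1 rose and 2 fell of 16 tested in BRCA2-proficient cells, where 3.18% of all genes rose and 1.92% fell. In BRCA2-deficient cells 1 rose and 3 fell of 18, where 2.95% of all genes rose and 2.57% fell. The death receptor FAS fell by 0.51 (SE 0.17, adjusted p = 0.0484) and 1.22 (SE 0.19, adjusted p = 6.25e-08) in the 2 backgrounds. In the first FAS fell by 0.63 without the library labelled BRCA2-proficient GSK3i + siβ-catenin replicate 2. The values of CD40 and TNFRSF11B were then 1.34 and -1.18.

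The genes whose levels were most like each of the 3 were found over all 22 libraries by Pearson's r of log2(normalised count + 1), among 13150 genes with a mean of at least 50. The libraries share groups and treatments, so r is a description. For SOX4 these were TSC22D1 (r = 0.95), a TGF-β-responsive leucine-zipper protein, the tetraspanin TSPAN5 (0.95) and TMEM200A (0.93). For SP5 they were SH3BP4 (0.88), an endocytic adaptor, the lipid phosphatase PLPP3 (0.87) and the growth factor BMP4 (0.84), which is on the WNT target list. For TNFRSF19 they were TTI1 (0.91), a chaperone partner of PI3K-like kinases, SOX2 (0.88) and the kinase MAP3K4 (0.87). Between the 3 genes r was 0.67 for SOX4 with SP5, 0.67 for SOX4 with TNFRSF19 and 0.19 for SP5 with TNFRSF19.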

How the data were processed

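The table deposited by the authors held raw read counts per Ensembl gene. Per the labels and the methods of the study, poly(A)-selected, strand-specific libraries were aligned to GRCh37. The submitters' processing notes name HISAT2 2.0.4, SAMtools 1.4, Picard 1.9.2 and featureCounts 1.5.0. The Ensembl release and strand setting are not given in the sources used here. Removing duplicates lowers the counts of abundant genes most.

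Totals were 18938266 to 29280122 counts per library. Depth sets the counting error, which weighs most on TNFRSF19. A symbol was found for 29629 of the 37908 identifiers. Each comparison was fitted on its own groups over all genes in R 4.3.3 with DESeq2 1.42.0 (Wald test, two-sided, median-of-ratios size factors, no shrinkage, Benjamini-Hochberg adjustment). Genes were tested unless more than 3 libraries had fewer than 10 counts. Interactions used genes that reached 10 counts in 3 or more libraries. SOX4, SP5 and TNFRSF19 passed in every fit. The alternatives were edgeR 4.0.16 quasi-likelihood, TMM size factors, no filter, a replicate block, 1 model over all 8 groups and leaving out each library. The fits were tested on simulated data.

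The genes and lists were chosen with earlier results of these data known. Tests had been planned for the GSK3i response with siβ-catenin and for differences between backgrounds of the GSK3i responses and of siβ-catenin under GSK3i. These draw on values that chose the 3 genes, and are given for them without p-values. The text names the 3 genes, the label checks CTNNB1, BRCA2 and AXIN2, the 3 genes most like each, and up to 4 called genes of largest change per list and comparison. PDCD4 and SOX12 were named after their values were seen.

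The study describes its RNA-seq as 3 independent experiments, while the labels give only replicate numbers. The p-values measure the spread between these libraries. Replicate numbers recur across groups. With 3 shared numbers, same-numbered libraries deviated together in every pair (r from 0.16 to 0.84), and the numbers were taken to pair those libraries. The reported values and p-values come from fits without this pairing, and the replicate block is the alternative that uses it. Comparisons with 2 shared numbers were not taken as paired. A planned check of the cell line on a further marker gene is not reported here.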

Additional observations from a re-analysis of the deposited data

Results flagged for a closer look

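The response of SP5 to siβ-catenin without GSK3i differed between BRCA2 backgrounds by 1.47 ± 0.4 on the log2 scale (BRCA2-deficient minus BRCA2-proficient, adjusted p = 0.0176 from DESeq2), and it was picked out because the interaction term passed the test. The term can be built from the responses that chose SP5, so this p-value is not independent of the choice. The changes were 0.51 ± 0.23 in BRCA2-deficient and -0.97 ± 0.41 in BRCA2-proficient cells, neither of them called alone. The call was lost with edgeR (adjusted p = 0.14) and in 5 of the 10 fits that left out 1 library. These include the fit without the library labelled BRCA2-proficient siβ-catenin replicate 2 (1.16). Leaving out a BRCA2-proficient library left 1 in its group, and such fits are not read as test results. The difference uses the 2 BRCA2-proficient libraries with siβ-catenin, whose GSK3i scores were 2.8 and 1.83, and its cause was not tested.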

How the results depend on the processing

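For SOX4, SP5 and TNFRSF19, 216 of 231 refitted values of the tested comparisons kept their direction and their side of the threshold. Of 444 refitted values given as a description, 440 moved by less than their SE, but 15 were called where the reported value was not, or the reverse, and 6 changed sign. Causes were not tested. The 15 were 4 of SP5 (BRCA2-proficient) and 5 of TNFRSF19 (BRCA2-deficient) in the response to siβ-catenin under GSK3i, and 6 of SP5 in the difference of the GSK3i response with siβ-catenin. With edgeR and with 1 model over all groups, TNFRSF19 was called lower with BRCA2 depletion under siβ-catenin (-1.06, adjusted p = 0.043, and -1.05, adjusted p = 0.0156). With edgeR both differences of SP5 between backgrounds lost the call (-1.97 for GSK3i with siβ-catenin, and 1.47, adjusted p = 0.14, for siβ-catenin without GSK3i). Without both libraries at odds with their GSK3i label, an alternative chosen after seeing the data, the former was -1.36 and not called, the GSK3i response of SP5 with siβ-catenin in BRCA2-proficient cells went from 0.66 to 0.05, and the interaction of GSK3i with siβ-catenin for SP5 in BRCA2-proficient cells moved to -0.47. With the replicate block, which takes the pairing of libraries into account, SP5 with BRCA2 depletion in untreated cells went from 0.1 to 0, and no call of the 3 genes changed.

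Leaving out 1 library at a time, the response of SP5 to siβ-catenin in BRCA2-proficient GSK3i-treated cells ranged from -1.13 to -0.65. Its difference in the GSK3i response with siβ-catenin ranged from -2.35 to -1.64 and was lost without the BRCA2-deficient siβ-catenin replicate 1, the BRCA2-deficient GSK3i + siβ-catenin replicate 2 or 3, or the BRCA2-proficient siβ-catenin replicate 2. Its difference in the siβ-catenin response without GSK3i ranged from 1.16 to 1.88. The call of that difference was lost without the BRCA2-deficient siβ-catenin replicate 1 or untreated replicate 2. It was also lost without the BRCA2-proficient siβ-catenin replicate 2 or untreated replicate 2 or 3, in fits that left 1 library in a group. Values near 0 changed sign: the GSK3i response with siβ-catenin in BRCA2-proficient cells (SOX4 -0.08 to 0.02, TNFRSF19 -0.19 to 0.17), the interaction of GSK3i with siβ-catenin for SP5 there (-0.18 to 0.54, reported as 0.13), TNFRSF19 with siβ-catenin without GSK3i there (-0.04 to 0.33), SOX4 with BRCA2 depletion untreated (-0.06 to 0.11) and with siβ-catenin (-0.11 to 0.01), and its difference in the siβ-catenin response without GSK3i (-0.16 to 0.01).

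The background counts of called genes moved more. With edgeR they went from 836 to 183 and from 939 to 267 for siβ-catenin under GSK3i (BRCA2-proficient, then BRCA2-deficient), from 524 to 1 and from 351 to 0 for siβ-catenin without GSK3i (the first was 274 with the model over all groups and 189 with the block), and from 1185 to 326, 1112 to 645 and 1319 to 483 for BRCA2 depletion untreated, under GSK3i and with both treatments. The block moved the last siβ-catenin count to 527 and BRCA2 depletion with siβ-catenin from 4888 to 2020. The counts for GSK3i with siβ-catenin in BRCA2-proficient cells were 9 with DESeq2, 0 with edgeR, 1 with the model over all groups, 3 with the block and 1101 without both libraries. For the differences between backgrounds the counts were 6, 79, 1 and 442 with DESeq2 and 0 each with edgeR, in the order GSK3i with control siRNA, GSK3i with siβ-catenin, siβ-catenin under GSK3i and siβ-catenin without GSK3i. With the block they were 94, 264, 4 and 549, with the model over all groups 1, 722, 0 and 118, and the second was 42 without both libraries.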
